A study of Homo sapiens with 12 samples.

Results

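The cytosolic ribosome of 3 human hepatocellular carcinoma (HCC) cell lines was examined through the mRNA of its protein genes. Members were taken by symbol, as the genes named RPL, RPS or RPLP followed by a number and at most 1 of the letters A, X or L, together with RPSA. This rule found 79 of the 11548 genes in the table, 32 of the small and 47 of the large subunit, and left out pseudogenes and the RPS6K kinases. The 12 libraries come from Hep3B, MHCC97H and Huh7 cells (wild type in the labels), each cell line giving a single library for each treatment. The treatments were none, 100 nM of AZD8055, which inhibits the mTOR kinase in both of its complexes, compound #57, an allosteric inhibitor of the phosphatase SHP2, and the combination of both. The combination of the study holds 5 µM of compound #57, and its dose alone in the sequenced cells is not given in the sources used here. Exposure lasted 48 h in Hep3B and Huh7 but 24 h in MHCC97H, and where MHCC97H differs the time and the cell line cannot be told apart.

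A ribosome is built from a small subunit, which reads the mRNA, and a large subunit, which joins amino acids, and each holds ribosomal RNA and a fixed set of proteins. The mRNAs of these proteins carry a terminal oligopyrimidine (TOP) tract, a C followed by a run of C and T at the very 5′ end, through which mTOR controls their translation. Liver cells, which secrete large amounts of plasma protein, use many ribosomes. The libraries measure mRNA only, so translation and protein were not measured.

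The start of 8 members is shown because the TOP tract sits there and because these genes returned in the comparisons below. RefSeq promoter entries (GRCh38.p14) were found for 63 of the 79 members, and each line gives 15 bases before and 15 bases from the annotated start, 5′ to 3′ on the strand of the gene. Capitals mark the longest run of C followed by at least 5 bases that are C or T, on that strand alone, if it begins within 2 bases of the start. RPL13A, RPL28, RPL10, RPS27 and RPLP0 rose in the combination, RPS10 and RPL17 fell in it, and RPS27L is the paralog of RPS27.
RPL13A: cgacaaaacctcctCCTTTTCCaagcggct
RPL28: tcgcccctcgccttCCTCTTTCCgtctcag
RPL10: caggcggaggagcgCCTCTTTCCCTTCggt
RPS27: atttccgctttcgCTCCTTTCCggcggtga
RPLP0: gcgcgggcgcgaggCCCTTCTCTCgccagg
RPS10: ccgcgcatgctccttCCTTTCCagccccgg
RPL17: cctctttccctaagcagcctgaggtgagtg
RPS27L: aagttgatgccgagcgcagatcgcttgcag

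The windows lie at chr19:49487593-49487622 (RPL13A, plus strand), chr19:55385917-55385946 (RPL28, plus), chrX:154398362-154398391 (RPL10, plus), chr1:153990747-153990776 (RPS27, plus), chr12:120201097-120201126 (RPLP0, minus), chr6:34426055-34426084 (RPS10, minus), chr18:49492451-49492480 (RPL17, minus) and chr15:63157463-63157492 (RPS27L, minus). Such a run was found at an annotated start of 48 of the 63 members (76.2%). Of the 27305 genes in the whole promoter table, 8.65% held it, and of the genes in the expression table that are not members, 11.1%. The mitochondrial ribosomal protein genes, which serve another ribosome, held it in 2 of 65 cases (3.08%). For RPL10, the entry shown is 1 of 3 annotated starts, and the other two held no run. The 15 members with an entry and no run included RPL3, RPL4, RPL15 and RPS26, and they lack only a run that begins within 2 bases of an annotated start. In the window of RPL17, a C followed by C and T stands further upstream.

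The libraries held 10667343 to 15968317 reads, and members took 289521 to 509508 of them, with at least 17 reads for each member in each library. Hepatocyte markers were abundant in Hep3B and Huh7 and low in MHCC97H. Summed over the 10 markers listed for this check, all in the table, they ranged from 196841 to 551436 reads per 10000000 in Hep3B, from 326908 to 482396 in Huh7 and from 2382 to 4419 in MHCC97H, where ALB stayed at or below 732 and TTR at or below 2.10. Of the 5 epithelial markers, KRT8, KRT18, KRT19 and CDH1 were present in the 3 cell lines, while EPCAM was at 3.51 to 9.12 in MHCC97H and at 3224 to 5256 in Hep3B. Of 5 fibroblast markers, 3 were in the table, with LUM at up to 822 in MHCC97H and COL1A2 at up to 1016 in Huh7. Of 4 endothelial markers, PECAM1 was in the table, at up to 541 in MHCC97H, and none of the 5 immune markers was.

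The ribosomal protein mRNAs as a whole took the smallest share of each cell line with compound #57. In Hep3B, the members held 3.43% of the reads untreated, 4.16% with AZD8055, 2.35% with compound #57 and 3.98% with the combination. In MHCC97H, the shares in the same order were 3.00%, 3.15%, 2.54% and 3.23%. In Huh7, they were 3.13%, 3.68%, 2.55% and 3.90%. The order of the treatments was thus the same at the low end in all 3 cell lines, with compound #57 lowest and untreated next, while AZD8055 was highest in Hep3B and the combination was highest in the other two. The 95% exact Clopper-Pearson intervals reached at most 0.0112 percentage points to either side. They cover counting error alone and not the spread between cultures.

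The share with compound #57 was 0.783 ± 0.086 (SD, n = 3 cell lines) of the untreated share, and lower in 3 of 3. With AZD8055 it was 1.15 ± 0.086 times the untreated share, and with the combination 1.16 ± 0.085 times, each higher in 3 of 3. Between combination and compound #57 the ratio was 1.497 ± 0.211, and between combination and AZD8055 it was 1.01 ± 0.054, with Hep3B below 1 at 0.955. An exact permutation test within 3 cell lines cannot give a two-sided p below 0.25, so none of these ratios could pass a threshold of 0.05. All of them share libraries with each other.

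Most members moved together within a cell line, with a small size for each. The log2-fold change of a member is the difference between its values in the libraries, each log2 of reads per 10000000 plus 1. With compound #57, the median member changed by -0.53 in Hep3B, -0.26 in MHCC97H and -0.27 in Huh7, and 78, 73 and 73 of the 79 members were lower, where 49.0%, 37.3% and 46.4% of all genes were. Of the members, 69 were lower in all 3 cell lines and RPS27L alone was higher in all 3. Over all genes, 19.7% were lower and 30.6% were higher in all 3 cell lines. The mean of the 3 medians was -0.35 ± 0.15 (SD, n = 3), against 0.042 for all genes. Of the 10 hepatocyte markers, 8 were higher in Hep3B, 8 in MHCC97H and 6 in Huh7, where 51.0%, 61.9% and 53.5% of all genes were. In MHCC97H, TTR and APOA1 were near the floor, at up to 2.10 and 8.09 reads per 10000000. The share of ALB in Hep3B was 2.11% untreated and 4.02% with compound #57. With each library centred on its own median gene, the median member changed by -0.42, so the lower values were as large without the shift of all genes.

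With AZD8055, the median member changed by 0.27 in Hep3B, 0.027 in MHCC97H and 0.20 in Huh7. Members were higher in 71, 45 and 63 of 79 cases, beside 52.0%, 54.1% and 48.6% of all genes, and 44 were higher in all 3 cell lines, where 28.4% of all genes were. The combination gave medians of 0.19, 0.037 and 0.26, with 43 members higher in all 3 cell lines and 33.4% of all genes. In MHCC97H, the median of all genes was 0.055 with AZD8055 and 0.089 with the combination, above that of the members in both. With libraries centred on their median gene, the mean of the 3 medians of the members went from 0.16 to 0.13 with AZD8055 and from 0.16 to 0.091 with the combination. In MHCC97H, members thus split to both sides with AZD8055, whether or not compound #57 was added. Combination and compound #57 differed most, by a median of 0.73 in Hep3B, 0.57 in Huh7 and 0.31 in MHCC97H, and 70 of 79 members were higher in all 3 cell lines, as were 26.3% of all genes. Hepatocyte markers were higher in 1, 4 and 3 of 10 cases with AZD8055, in 4, 5 and 6 with the combination, and in 0, 4 and 2 for the combination against compound #57, in the order Hep3B, MHCC97H and Huh7. Their part in the values of the members was not tested.

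Small and large subunit genes had similar medians. With compound #57, the mean of the 3 medians was -0.34 for the 32 small subunit genes and -0.35 for the 47 large subunit genes. In the combination, the values were 0.14 and 0.22. Their difference was smaller than the spread between cell lines.

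Across the cell lines, each member was tested in a limma model that held treatment and cell line and used the 12 libraries together. A gene was called at a Benjamini-Hochberg adjusted p under 0.05 over all 11548 genes. The cell line term takes out the level of each cell line. For treatments, the p-values thus rest on how far the changes varied between the 3 cell lines, together with any spread between libraries. With a single library for each treatment in a cell line, these parts cannot be told apart. No source says whether the libraries came from separate cultures. Calls depended on which cell lines were in the fit, as given with each comparison.

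With compound #57 alone, no member was called lower, with 0.00% of all genes called lower and 0.00866% called higher. At an unadjusted p under 0.05, 54 members were lower and none higher, against 8.10% of all genes lower and 13.6% higher. The smallest adjusted p of a member was 0.0912, and 78 of 79 members had a fitted change below 0, as did 44.2% of all genes, with a median of -0.34. RPS10, a protein of the head of the small subunit, had the lowest value, at -0.79 ± 0.16 (SE). Without MHCC97H, 2 members were called lower, as were 311 of all 11548 genes. Voom on the whole reads of all libraries called 1 member lower, and 19 of all genes.

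Only 2 members, RPL13 and RPL13A, were called higher with AZD8055. This is 2.53% of the members, close to the 2.21% of all genes called higher, so the count does not set the members apart. RPL13 and RPL13A are large subunit proteins, and RPL13A is also known to leave the ribosome and silence inflammatory mRNAs. RPL13A (chr19:49487510-49493057, plus strand) was read at 8219 per 10000000 in untreated Hep3B, 12036 with AZD8055, 5787 with compound #57 and 12354 with the combination. In the same order, RPL13A was at 8318, 11619, 6619 and 12794 in MHCC97H and at 6664, 9355, 5254 and 9441 in Huh7. Every AZD8055 and combination library thus stood above every untreated library, and every compound #57 library stood below them all. RPL13A was picked by its call in these same libraries, and genes with such an order were not counted. The change with AZD8055 was 0.51 ± 0.11 (SE, adjusted p = 0.0462, limma).

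RPL13 (chr16:89560677-89564542, plus strand) was read at 3479, 4860, 2653 and 4892 per 10000000 in Hep3B, 1985, 2726, 1691 and 2465 in MHCC97H, and 4338, 6465, 3907 and 6967 in Huh7. The cell lines differed more than the treatments, but AZD8055 was above untreated in each. The change was 0.51 ± 0.11 (SE, adjusted p = 0.0452, limma), and neither gene passed with any cell line left out. RPL4, which lines the exit tunnel, had the next value at 0.45 ± 0.15 with an adjusted p of 0.0926. At the other end stood RPL17 at -0.74 ± 0.23, RPS26 at -0.49 ± 0.24 and RPL35 at -0.22 ± 0.14, none of them called.

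In the combination, 12 members rose against untreated and 2 fell. These are 15.2% and 2.53% of the members, below the 20.9% and 15.1% of all genes called higher and lower in this comparison. The 10 large subunit genes that rose included RPL13A at 0.57 ± 0.11, RPL28 at 0.56 ± 0.13, RPL13 at 0.50 ± 0.11, RPL22 at 0.47 ± 0.12, RPL15 and RPL10 at 0.45 ± 0.11, RPL5 at 0.42 ± 0.13 and the stalk protein RPLP0 at 0.38 ± 0.12 (SE). The 2 small subunit genes were RPS27, at 0.48 ± 0.12, and RPS9, at 0.42 ± 0.12. RPL5 binds the 5S rRNA and, with RPL11, restrains MDM2. Its partner RPL11 changed by 0.13 ± 0.13 and was not called. No member was called without Huh7, where 11 of all 11548 genes were called higher and 0 lower. Without Hep3B, 1 member rose and 1 fell, where 1030 of all genes were called higher and 767 lower. Without MHCC97H, 16 members rose and none fell, where 2067 of all genes were called higher and 1711 lower.

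RPL28 (chr19:55385932-55403250, plus strand) was read at 2911, 3991, 2413 and 4288 per 10000000 in Hep3B, 3168, 3622, 2595 and 3829 in MHCC97H, and 2476, 3716, 2123 and 4448 in Huh7. All 6 libraries that received AZD8055 were above the untreated library of their cell line, and the groups with and without it did not overlap. RPL28 was picked by its call in these same libraries, and genes that part in this way were not counted. RPL28 is absent from the ribosome of yeast and is among the less conserved proteins of the large subunit.

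RPL17 (chr18:49488453-49492508, minus strand), at the mouth of the exit tunnel, fell by 0.85 ± 0.23 on the log2 scale (adjusted p = 0.0196, limma). It was the lowest member, at 58.1, 36.0, 27.5 and 30.8 per 10000000 in Hep3B, 56.8, 28.1, 35.1 and 27.5 in MHCC97H, and 42.0, 28.2, 31.7 and 26.7 in Huh7. Each untreated library was above the 3 treated libraries of its cell line. The call of RPL17 was lost with any cell line left out, at adjusted p-values of 0.0816 to 0.111, and so was that of RPS10, at 0.0885 to 0.297 (limma). RPS10 (chr6:34417454-34426069, minus strand) fell by 0.47 ± 0.16 (adjusted p = 0.0411, limma). It was at 299.98, 302.4, 167.6 and 250.2 in Hep3B, 217.3, 211.8, 134.2 and 172.2 in MHCC97H, and 187.2, 132.9, 103.95 and 105.8 in Huh7, and compound #57 was the lowest library of each.

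RPL17 and RPS10 share a feature of the annotation. A readthrough gene that joins them to a neighbour is listed for 3 of the 79 members, RPL17 (RPL17-C18orf32), RPS10 (RPS10-NUDT3) and RPL36A (RPL36A-HNRNPH2), and these are among the 4 lowest members by mean level. How reads in both a gene and its readthrough were counted is not given in the sources used here. In addition, 77 of the members have named pseudogenes, 1587 in all, so that the split of reads between a member and its copies is uncertain. RPL21, the fifth lowest member, has 133 of them, the most among the members named here.

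RPS26, which lies at the mRNA exit of the small subunit, had the second lowest change in the combination, at -0.59 ± 0.24 (adjusted p = 0.080), and its cell lines went apart. It was read at 1408, 1457, 1028 and 1548 per 10000000 in Hep3B, 1307, 728, 1080 and 645 in MHCC97H, and 1095, 679, 846 and 588 in Huh7. With AZD8055, alone or combined, Hep3B was thus at or above its untreated level and the other cell lines were well below theirs. Without Hep3B, RPS26 was at -0.96 (adjusted p = 0.0214, limma), and 767 of all 11548 genes were called lower in that fit. Since Hep3B is the cell line that differed, the fit without it gives no separate support for a fall.

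**Figure D1:**
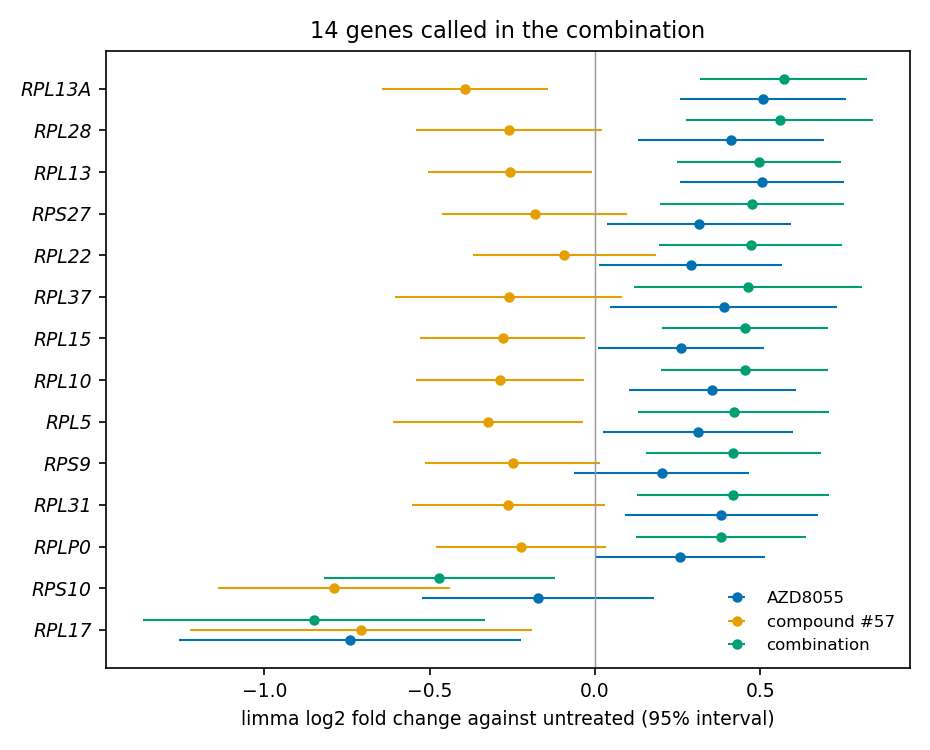
Fitted log2-fold change against untreated (limma, 95% interval) of the 14 members called in the combination, for AZD8055, compound #57 and the combination, from 12 libraries of 3 cell lines. Combination values run from -0.85 for RPL17 to 0.57 for RPL13A, and the compound #57 estimate is below 0 for every gene shown.

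The combination differed most from compound #57 alone. Here 40 members were higher (50.6% of the members) and none was lower, where 2.62% of all genes were called higher and 1.57% lower. The 40 were 14 of the small and 26 of the large subunit, and the median of all members was 0.55. Largest was RPL13A at 0.96 ± 0.11 (SE, adjusted p = 0.0104, limma), followed by RPL4 at 0.84 ± 0.15 and RPL28 at 0.82 ± 0.13. RPL13, RPL15, RPL10, RPL5, RPL18 and RPL23A had values between 0.65 and 0.75. RPS6, the protein that the S6 kinases of the mTOR pathway phosphorylate, was at 0.55 ± 0.13 (adjusted p = 0.0454). All 12 members that were higher in the combination than in untreated cells were among the 40, of which they are 30.0%, and both comparisons use the combination libraries. The count fell to 29 without MHCC97H, where 178 of all 11548 genes were called higher. It fell to 0 without Hep3B or without Huh7, where 1 and 0 of all genes were called higher.

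Single libraries show how this comparison came about. RPL5 was read at 5875, 7559, 3929 and 7860 per 10000000 in Hep3B, 3854, 4489, 3507 and 4993 in MHCC97H, and 6301, 8035, 5282 and 8700 in Huh7. RPL23A was at 3584, 4721, 2435 and 4274 in Hep3B, 2475, 2950, 2060 and 2895 in MHCC97H, and 3472, 3954, 2535 and 3988 in Huh7. In both genes, compound #57 was the lowest library of every cell line, and the combination lay on the side of AZD8055.

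Between the combination and AZD8055 alone, no member was called, with 0.00% of all genes called in this comparison, and no member passed even an unadjusted p under 0.05, while 9.30% of all genes did so with a higher and 5.19% with a lower value. The fitted values ran from -0.37 for RPL39L to 0.22 for RPS9, with 38 members above 0 and 41 below, beside 55.7% and 44.3% of all genes. The difference between the effect of compound #57 in the presence and in the absence of AZD8055 was above 0 for 77 members and 47.7% of all genes, with a median of 0.37 against -0.011 for all genes. In both of these comparisons, voom called 0 members as well. For the difference, no member passed the adjusted threshold in limma, at an adjusted p of 0.9999 in each, and 0.00% of all genes were called. At an unadjusted p under 0.05, 25 members were above 0, where 0.979% of all genes were.

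The largest differences between cell lines exceeded those between treatments. Of the 79 members, 75 were called between at least 1 pair of cell lines. That count was not made for all genes, so it does not set the members apart. For the members, the median range between the means of the cell lines was 0.71 on the log2 scale. Hep3B was above Huh7 in 30 members (38.0%) and below in 11 (13.9%), where 30.7% and 24.5% of all genes were called. MHCC97H was above Hep3B in 14 (17.7%) and below in 40 (50.6%), with 29.2% and 38.6% of all genes. Against Huh7 it was above in 22 (27.8%) and below in 34 (43.0%), with 33.8% and 36.4% of all genes. The shorter exposure of MHCC97H cannot be told apart from the cell line. In these comparisons, the 4 libraries of a cell line stand in for its replicates, although each had a different treatment. Their SEs and p-values thus do not measure the spread between untreated cultures of a cell line.

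RPL36A (chrX:101390824-101396155, plus strand) differed most, by 2.94 ± 0.34 (SE, adjusted p = 2.8e-05, limma) between MHCC97H and Huh7. It was at 48.7, 47.4, 31.4 and 19.4 per 10000000 in Hep3B, 169.7, 142.4, 148.3 and 89.7 in MHCC97H, and 15.03, 14.1, 13.3 and 26.7 in Huh7. MHCC97H thus did not overlap with the others, in a gene picked for its difference between cell lines. RPL39, a short protein of the exit tunnel wall and like RPL36A on the X chromosome, was also highest in MHCC97H, at 4866 to 5943 against 1557 to 2579 in Hep3B and 1834 to 2816 in Huh7.

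The other 6 of the 8 members that differed most were lowest in MHCC97H. RPS6 (chr9:19375715-19380236, minus strand) was at 10325, 12873, 7056 and 11946 per 10000000 in Hep3B, 3148, 3192, 2610 and 3529 in MHCC97H, and 9509, 10922, 7490 and 10216 in Huh7. Its difference between MHCC97H and Hep3B was -1.73 ± 0.11 (SE), while Hep3B and Huh7 differed by 0.12 ± 0.11 (adjusted p = 0.366, limma). RPS7, RPL21 and RPL32 were lower in MHCC97H than in Hep3B by values between -1.41 and -1.54, and RPL37 was lower than in Huh7 by -1.65. Among these 6, RPL15 and RPL32 were called between every pair of cell lines, RPL15 with means of 13.10 in Huh7, 12.23 in Hep3B and 11.32 in MHCC97H on the log2 scale.

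Levels spanned a wide range between members. On the log2 scale the mean over the 12 libraries had a median of 11.76 over the members, and 71 of 79 were above 10. RPL4, RPL3, RPLP0, RPL7A and RPL8 were highest in reads, at 13.56, 13.35, 13.28, 13.14 and 13.09, and RPL17, RPL36A, RPL39L, RPS10 and RPL21 lowest, at 5.15, 5.45, 7.46, 7.495 and 7.57. Per 1 kb of transcript, RPLP0 (12997 reads per 10000000) and RPL8 (12077) were among the 6 highest, and RPL3 (9447) was at rank 13. The length used for RPL4, 569 bases, is that of a short annotated transcript, and its per-length rank is uncertain for that reason. The other per-length values also depend on the 1 transcript taken for each gene.

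The stalk of the large subunit, which recruits the elongation factors, is built from RPLP0, RPLP1 and RPLP2. RPLP0 was read at 8095, 9530, 6265 and 9837 per 10000000 in Hep3B, 9888, 12399, 9260 and 13984 in MHCC97H, and 9876, 11413, 8573 and 12690 in Huh7. RPLP1 and RPLP2 were not called in any treatment comparison, with 0.16 ± 0.15 and 0.21 ± 0.15 (SE) in the combination against untreated. Under compound #57 they were below untreated in Hep3B, at 3511 against 5267 for RPLP1 and 2808 against 4098 for RPLP2. In MHCC97H both were above it, at 6266 against 5846 and 3916 against 3762.

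RPS27 and RPL39 each have a paralog among the members. RPS27L, a near copy of RPS27 that is known as a p53 target, was read at 637, 473, 705 and 624 per 10000000 in Hep3B, 364, 485, 464 and 644 in MHCC97H, and 1027, 737, 1043 and 606 in Huh7. RPS27 was at 4250, 5691, 3401 and 5764, at 4112, 4393, 3606 and 4963, and at 2142, 2883, 2087 and 3518 in the same order. In Huh7, RPS27L was thus lowest in the libraries with AZD8055, in which RPS27 was highest, and in MHCC97H it was highest in them. No call was made for RPS27L in any treatment comparison, with an SE of 0.25.

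Relative to RPS27, and per length of transcript, RPS27L stood at 24.4% in untreated Huh7, 13.0% with AZD8055, 25.4% with compound #57 and 8.75% with the combination. The ratio in the same order was 7.61%, 4.22%, 10.5% and 5.49% in Hep3B and 4.50%, 5.60%, 6.54% and 6.59% in MHCC97H. RPL39L, the paralog of RPL39 best known from the testis, was at 239, 301, 180 and 184 reads per 10000000 in Hep3B, 187, 148, 195 and 157 in MHCC97H, and 170, 145, 163 and 104 in Huh7. No treatment call was made for RPL39L either. Both paralogs have no named pseudogene, unlike the other 77 members.

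Other genes of the translation machinery were counted in the same fit, in which the combination called 20.9% of all genes higher and 15.1% lower than untreated. These calls, too, rest on the cell lines in the fit, since without Huh7 only 11 genes of the whole table were called higher and 0 lower, and without the cell line term 0 were called. Of 16 other TOP mRNAs, which include elongation factors, 11 rose in the combination against untreated and none fell, with a median fitted change of 0.61 beside 0.19 for the members and 0.086 for all genes. EEF2, the translocase, rose by 1.02 ± 0.17 and EIF4B, a cofactor of the mRNA helicase, by 0.87 ± 0.13 (SE). AZD8055 raised 3 of the 16, where 2.21% of all genes rose, and against compound #57 the combination was higher in 10, where 2.62% of all genes were. In the promoter table, 7 of the 9 that were matched held the run of C and T.

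Of 37 ribosome biogenesis genes, which assemble ribosomes, 32 fell in the combination and 1 rose, with a median of -0.93, and none of these falls was called without Huh7. BOP1, which processes the large subunit rRNA, fell by 1.502 ± 0.254 and the rRNA methyltransferase NOP2 by 1.34 ± 0.18 on the log2 scale (SE). Mitochondrial ribosomal protein genes fell in 36 of 74 cases and rose in none, with a median of -0.42, again with no gene called lower without Huh7. Of 10 genes of translation control by mTOR, 6 fell and none rose. EIF4EBP1, which encodes the translation repressor 4E-BP1, fell by 1.295 ± 0.211. Of 7 cytosolic ribosomal protein genes outside the symbol rule, 3 fell, all of them paralogs: RPL22L1 by 1.17 ± 0.25, RPL7L1 by 0.65 ± 0.16 and RPL36AL by 0.55 ± 0.14. RPL22, the parent of RPL22L1, was among the members that rose.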

How the data were processed

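RNA was sequenced after poly(A)+ stranded library preparation in 12 libraries, 1 for each of 3 cell lines and 4 treatments. Per the labels and the study's methods, reads were aligned to hg38. The aligner, the counting and the normalization are not given in the sources used here. The authors deposited log2 values, which were found to equal log2(reads scaled to 10000000 per library + 1) plus 0.001. Undoing this gave whole reads for 100% of values (tolerance 0.001), and the table holds 98.6% to 99.2% of the reads of each library.

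Log2 values less the constant were fitted with limma 3.58.1 in R 4.3.3 (lmFit, eBayes with trend) to all 12 libraries together, in a model of treatment plus cell line that leaves 6 residual degrees of freedom. Libraries are paired by the cell line they share. p-values were adjusted (Benjamini-Hochberg) over all 11548 genes and called under 0.05. A pseudocount of 1 is part of the deposited scale, so the changes of low genes are understated. Coordinates and lengths came from GENCODE 44 (hg38) by symbol, and promoter starts from RefSeq (GRCh38.p14). The length is that of 1 transcript per gene, the one of median length, among protein-coding transcripts where there are any. Of the genes, 10561 (91.5%) had a length and GC content, and all 79 members did. With 1 library per condition, no test was made within a cell line. Python 3.11.15 was used for tables and figures. On simulated data for AZD8055 against untreated, the fit called 14% of genes changed by 0.5 on the log2 scale. It called 90% at 1 and 100% at 2, and 3 unchanged genes. The spread between simulated libraries was a set value. With compound #57, 73 of the 79 members had a fitted change between -0.5 and 0. A member that was not called is thus not shown to be unchanged.

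Members and lists were chosen with earlier results of these data known. Members named with values were up to 10 called per treatment comparison by smallest adjusted p, the 3 highest and 3 lowest with AZD8055 and with the combination, the 8 with the largest difference between cell lines, the 5 highest and 5 lowest by level, paralog pairs, the stalk, RPS6, RPL5 and RPL11. Some members that this rule takes are not reported here. Of other lists, at most 4 genes with the largest changes were eligible. Alternatives were 10 added in place of 1, centring, scaling to reads outside the members, the 75% of genes with the highest mean, voom on the whole reads, adjustment for GC content and length (polynomial of degree 3), no trend, only the libraries compared, no cell line term and each cell line left out. Leaving out RPL17, RPL21, RPL36A and RPS10 was chosen after the data were seen.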

Additional observations from a re-analysis of the deposited data

Results flagged for a closer look

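Of 11 members examined for opposite changes in 2 cell lines (paralogs and parents, stalk proteins, RPS6, RPL5 and RPL11), 5 pairs of values from RPS27L and RPL39L moved at least 0.25 on the log2 scale to opposite sides, with Clopper-Pearson intervals on their own side of 0 that cover counting error alone. With 1 library per condition, these differences were not tested. RPS27L changed by 0.41 in MHCC97H and -0.48 in Huh7 with AZD8055, and by 0.82 and -0.76 with the combination. Between combination and AZD8055, RPS27L differed by 0.41 in MHCC97H and -0.28 in Huh7, and between combination and compound #57 by 0.47 and -0.78. RPL39L changed with AZD8055 by 0.33 in Hep3B and -0.34 in MHCC97H, from 255 to 368 and from 244 to 211 reads. MHCC97H was collected after 24 h and the other cell lines after 48 h, so the exposure and the cell line cannot be told apart.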

How the results depend on the processing

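The medians of the members and the ratios of their shares moved by less than the spread between cell lines under every alternative run, from -0.42 to -0.26 with compound #57, 0.11 to 0.23 with AZD8055, 0.091 to 0.22 with the combination and 0.44 to 0.65 between combination and compound #57. The median between combination and AZD8055, 0.012, ran from -0.027 to 0.051 and thus to both sides of 0. Counts of called members depended on the fit. Without the replicate block (no cell line term), 0 members were called with AZD8055 (2 with it), 0 with the combination (14) and 0 between combination and compound #57 (40). With only the libraries compared, the counts were 0, 0 and 1, and the cause was not tested. Without the trend, 0 were called with AZD8055 and 22 between combination and compound #57, and voom called 1 with compound #57. Leaving out a cell line in turn gave 0 to 0 with AZD8055, 0 to 2 with compound #57, 0 to 16 with the combination and 0 to 29 between combination and compound #57. The last range held 0 without Huh7 or Hep3B and 29 without MHCC97H, and fewer libraries leave fewer degrees of freedom. Between cell lines, members called for MHCC97H against Hep3B went from 54 to 35 without the treatment term and 34 with only untreated and compound #57 libraries, and for Hep3B against Huh7 from 41 to 27 with the latter. No member named with a called value changed its direction. The interaction uses all treatments and was not run on only the libraries compared. Members with under 100 reads in a library (RPL17 and RPL36A) have the widest counting error.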
